A study of Mus musculus with 8 samples.

Results

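The genes described here make, sulfate and trim glycosaminoglycans, the long sugar chains of cartilage. They were the 41 rows of the count table, of 55471 in all, whose symbols stand on a list of enzymes and carriers for chondroitin and heparan sulfate chain synthesis, sulfate supply and hyaluronan synthesis. Each symbol matched exactly 1 row. The libraries came from femur cells of neonatal mice, 3 to 5 days old, sorted by fluorescence-activated cell sorting as skeletal stem cells (SSC) or as bone cartilage stromal progenitors (BCSP). Bulk RNA sequencing with paired reads of 150 bases was done on 4 groups of 2 libraries: Tet1 knockout (KO) SSC, wild-type (WT) SSC, KO BCSP and WT BCSP. The labels number the libraries of each group round 1 and round 2, called library 1 and library 2 here. Every sample carries the strain name B6;129S4-Tet1tm1.1Jae/J, WT included. No Cre line or cell-type promoter is named in the labels, which also do not say how many pups went into a library or whether the libraries of a group came from separate pups. Each p-value below therefore measures only the spread between these samples.

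Glycosaminoglycan chains are built on core proteins in the Golgi. Xylose, galactose and glucuronic acid form a linker on a serine, and the chain then grows as chondroitin or as heparan sulfate, while sulfotransferases place sulfate groups taken from the donor PAPS. Hyaluronan is different in that it has no core protein and no sulfate and is made at the plasma membrane. In growth plate cartilage the sulfated chondroitin chains of aggrecan hold water, and heparan sulfate binds hedgehog, FGF and BMP ligands. TET1 oxidises methylated cytosine in DNA, most of which lies in CG pairs.

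Library totals ran from 104782544 to 168004119 counts, and the 41 genes took 0.344% to 0.495% of them. Levels are given as CPM, counts per 1e6 counts after TMM scaling, for comparisons of 1 gene between libraries, and as TPM, which divides by exon length, for comparisons between genes. Col2a1, the main cartilage collagen, held 24.7% to 30.6% of all counts, and endothelial markers summed to at most 1.78 CPM. Eng, a sort marker, was counted at 2.55 and 2.53 CPM in KO SSC, against 43.9 and 25.7 CPM in KO BCSP, and at 2.70 and 3.89 CPM in WT SSC, against 47.96 and 50.5 CPM in WT BCSP. The targeted gene was a weak check of the labels: Tet1 was counted at 7.26 and 11.8 CPM in KO SSC, against 15.6 and 19.6 CPM in WT SSC, and at 10.8 and 11.97 CPM in KO BCSP, against 21.6 and 10.98 CPM in WT BCSP, and WT BCSP library 2 lay within the KO range. WT BCSP library 2 also stood apart in its TMM factor, 0.854, against 0.944 to 1.06 in the other 7 libraries, so fold changes without it are given for Has2, Chst3, Chst12, Papss1, Uxs1, Ext2 and B3gat3.

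The 41 genes spanned a wide range of levels. Papss2 and Chst11 led, with means over the 8 libraries of 599 and 548 TPM. Papss2 makes PAPS from sulfate, and Chst11 adds sulfate at the 4-O position of chondroitin's galactosamine. Papss2 ranked first among the members in 7 of 8 libraries and Chst11 in the other, WT BCSP library 2. Xylt1, which starts the linker by adding xylose, followed at 191 TPM. The chondroitin polymerase subunits Chpf and Chsy1 averaged 190.1 and 170.5 TPM, and Ugdh, which makes UDP-glucuronic acid for all the chains, 146 TPM. The ranges of these 4 genes over the libraries overlapped, so their order is not resolved beyond the spread. The 6 leading genes together held 53.3% to 61.7% of the members' TPM in a library.

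**Figure D1:**
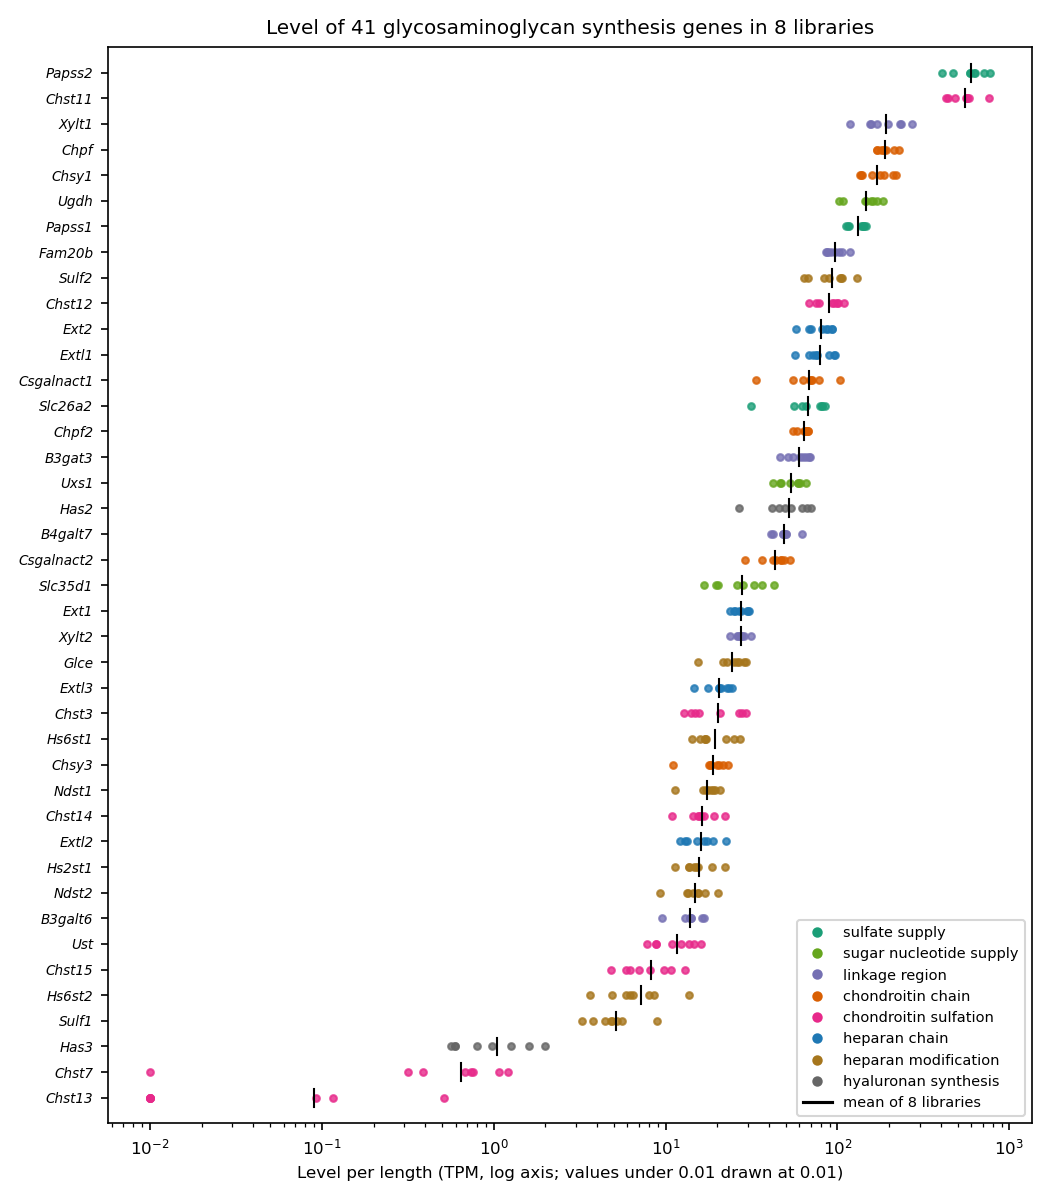
Level per length (TPM, log axis) of the 41 genes, 1 point per library and a bar at the mean of the 8 libraries, coloured by role. Papss2 and Chst11 lie above the rest, and Has3, Chst7 and Chst13 lie at the bottom with means of 1.05, 0.648 and 0.0903 TPM.

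At the lower end stood alternative enzymes of the same steps. Chst13, a further 4-O-sulfotransferase, had 28, 6 and 4 counts in 3 libraries and 0 in the other 5, and it was the only member that did not pass the filter on low counts. Chst7, which like Chst3 sulfates the 6-O position of chondroitin, had 0 to 107 counts. Pairs with the same activity differed in how far 1 gene led. Papss2 made up 74.3% to 84.8% of the TPM of Papss1 and Papss2, Xylt1 83.3% to 90.4% of that of Xylt1 and Xylt2, and Sulf2 93.5% to 96.9% of that of Sulf1 and Sulf2. Has2 made up 97.2% to 98.8% of the TPM of Has2 and Has3, and Chst11 81.5% to 87.9% of that of the 4-O-sulfotransferases Chst11, Chst12 and Chst13. Other pairs were more even, with Csgalnact1 at 41.6% to 70.1% of the TPM of Csgalnact1 and Csgalnact2, and Ndst1 at 50.5% to 58.4% of that of Ndst1 and Ndst2. Of the 41 genes, 32 were above 10 CPM in every library, and 26 had a highest CPM under 2 times their lowest.

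The DNA just before the starts of these genes was rich in CG when set against all listed starts. Promoter windows of 300 bases, 250 before and 50 after the start, were taken from RefSeq's table for GRCm38.p6, the assembly that mm10 names, and 31 of the 41 members had one, with 39 windows in all. Member windows held a median of 24 CG pairs, with a range of 1 to 48, against a median of 7 over all 32841 windows. Their median GC content was 66.3%, against 52.7%. The windows of all genes were not restricted to genes expressed in these cells. Whether the members differ in CG from other expressed genes was not tested. The sequence AACAAT, the core bound by SOX proteins, was searched on both strands and stood in 3 of the 39 member windows (7.69%) and in 10.7% of all windows. TATAAA, searched on the gene's strand, stood in 2 member windows (5.13%) and in 8.32% of all. Papss2 and Papss1 each have 2 listed starts, with 27 CG pairs in the window of the upstream start of each gene, and with 1 for Papss2 and 6 for Papss1 in that of the downstream start. No methylation was analysed here, and the motifs can overlap each other, and a match or its absence is a description of letters only. The 200 bases before the start are printed for 4 genes as examples, 5′ to 3′ on the gene's strand, with CG in capitals. Papss1, at its upstream start only (GRCm38.p6 chr3:131564568-131564767, plus strand, 17 CG), was lower in every KO library. Chst3 (chr10:60219261-60219460, minus strand, 16 CG) was higher in KO BCSP. Slc35d1 (chr4:103215177-103215376, minus strand, 16 CG) was higher in SSC, with an overlap in KO SSC library 2. Ust (chr10:8518826-8519025, minus strand, 14 CG) was higher in round 2. Of these only Ust was called. Chst12 had a lower p than Papss1 and Chst3 with genotype, and Sulf2 than Slc35d1 with cell type, and both are not printed.
Papss1: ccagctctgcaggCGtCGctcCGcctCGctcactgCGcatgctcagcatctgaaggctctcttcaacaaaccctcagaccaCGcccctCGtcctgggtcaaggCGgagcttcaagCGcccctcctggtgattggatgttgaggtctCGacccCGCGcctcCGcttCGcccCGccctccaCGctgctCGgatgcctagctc
Chst3: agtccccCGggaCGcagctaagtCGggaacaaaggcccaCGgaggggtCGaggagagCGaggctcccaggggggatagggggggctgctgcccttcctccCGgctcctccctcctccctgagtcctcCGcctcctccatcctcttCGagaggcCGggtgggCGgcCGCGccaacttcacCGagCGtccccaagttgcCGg
Slc35d1: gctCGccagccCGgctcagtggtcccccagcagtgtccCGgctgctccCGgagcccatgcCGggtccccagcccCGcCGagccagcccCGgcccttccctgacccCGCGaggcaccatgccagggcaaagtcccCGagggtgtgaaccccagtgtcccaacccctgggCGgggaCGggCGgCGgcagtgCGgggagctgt
Ust: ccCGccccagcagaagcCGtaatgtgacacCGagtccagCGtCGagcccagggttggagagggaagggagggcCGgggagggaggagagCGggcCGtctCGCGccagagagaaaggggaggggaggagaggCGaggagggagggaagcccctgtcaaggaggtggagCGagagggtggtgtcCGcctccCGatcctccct

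The KO was first compared with WT over both cell types. None of the 40 tested members passed the adjusted threshold, and the members with the lowest p were Has2 and Chst3, higher in KO, and Chst12, lower in KO. Hyaluronan synthases and most heparan-modifying genes had fold changes above 0, while the linker, supply and chondroitin genes lay mostly below 0. Of the 40, 12 had a log2 fold change above 0, and their median was -0.12, against 0.02 over all 22153 genes tested. By role the median was 0.63 for the 2 hyaluronan synthases and 0.21 for the 8 heparan-modifying genes, against -0.32 for the 6 linker genes, -0.26 for the 5 heparan chain genes and -0.23 for the 7 tested chondroitin sulfotransferases. It was -0.20 for the 3 genes of sugar nucleotide supply, -0.11 for the 3 of sulfate supply and -0.10 for the 6 chondroitin chain genes.

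By edgeR's quasi-likelihood test with Benjamini-Hochberg adjustment, 0 members were called over both cell types, where 3 of all genes (0.0135%) were. DESeq2 called 0 members as well. At an unadjusted edgeR p under 0.05 there were 2 members higher in KO, Chst3 and Has2, beside 3.95% of all genes, and 4 lower, Chst12, B4galt7, Papss1 and Ext2, beside 3.96% of all genes; DESeq2 had 8 in both directions. In SSC alone edgeR called 0 members (0.00451% of all genes) and 0 had an unadjusted p under 0.05 (1.20% of all genes). In BCSP alone it called 0 (0.00451% of all genes), with 3 higher at an unadjusted p under 0.05 (Chst3, Sulf1 and Has2, beside 3.23%) and 3 lower (Chst7, Chst12 and Ext2, beside 2.96%). DESeq2 called 0 members in either cell type, with 0 in SSC and 6 in BCSP at an unadjusted p under 0.05. At that level DESeq2 had 2218 of all 22153 genes over both cell types, 418 in SSC and 1830 in BCSP. As shares of the 40 members the edgeR counts were 5% higher and 10% lower over both cell types and 7.5% each way in BCSP. Each share rested on 2 to 4 genes. Without WT BCSP library 2, WT BCSP library 1 stands alone in its group, so counts by p are not given for that fit. The members' median log2 fold change in BCSP was -0.16 there, against -0.14 with all libraries. The BCSP fold changes of Chst12, Ext2 and Chst3 shrank without it, as given below.

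The difference between the KO effects of SSC and BCSP was tested too. For it edgeR called 0 of 40 members and 0 of all genes (0.00%), 0 members had an unadjusted p under 0.05 (1.27% of all genes), and DESeq2 called 0. The adjusted p was 1 for every member. The members with the lowest p there were Chst7, Sulf1 and Uxs1, with differences of 2.37 ± 1.68 (SE), -0.46 ± 0.37 and 0.36 ± 0.35 on the log2 scale. Their SE, 0.35 to 1.68, shows how wide the differences are that 2 libraries a group leave unresolved.

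The hyaluronan synthases had fold changes above 0 in KO. Has2, a hyaluronan synthase of the plasma membrane (chr15:56665627-56694539 in mm10), was counted at 52.9 and 64.7 CPM in KO SSC, against 44.2 and 45.3 CPM in WT SSC, and at 65.8 and 65.4 CPM in KO BCSP, against 47.7 and 35.4 CPM in WT BCSP. All 4 KO libraries lay above all 4 WT libraries. Has2 was the only member higher without overlap over both cell types, beside 2.13% of all genes. Its log2 fold change was 0.53 ± 0.15 (SE) over both cell types (edgeR adjusted p = 0.562), 0.40 ± 0.23 in SSC (adjusted p = 1) and 0.66 ± 0.23 in BCSP (adjusted p = 0.686). The round 1 differences of log2 CPM were 0.26 in SSC and 0.47 in BCSP, and those of round 2 were 0.52 and 0.88. The value over both cell types was 0.42 without WT BCSP library 2 and 0.42 without both BCSP libraries of round 2. Has3, at 0.866 to 2.79 CPM, had 0.72 ± 0.37 over both cell types. It was higher in KO in all 4 differences between libraries of the same cell type and round number. Of the 40 members 6, Has3 among them, were higher in all 4 and 10 were lower. The share of all genes with such signs was not computed, so these counts have no background. The round numbers were not taken to pair samples, so these signs are a description only. Has2 shares 182 exon bases with the antisense gene Has2os, and Has3 shares 704 with Chtf8. Whether reads were counted by strand is not given, so the reads over these bases cannot be told apart.

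Chondroitin sulfation held fold changes of both signs. Chst3, the main 6-O-sulfotransferase, was counted at 22.3 and 39.7 CPM in KO SSC, against 23.1 and 23.99 CPM in WT SSC, and at 45.2 and 42.00 CPM in KO BCSP, against 30.7 and 25.96 CPM in WT BCSP. KO lay above WT in BCSP, while KO SSC library 1 was the lowest of the 8 libraries and KO SSC library 2 was far above the WT SSC libraries. Its log2 fold change was 0.51 ± 0.18 (SE) over both cell types (edgeR adjusted p = 0.613), 0.62 ± 0.27 in BCSP (adjusted p = 0.686, and 0.51 without WT BCSP library 2) and 0.40 ± 0.27 in SSC, where leaving out KO SSC library 2 turned the sign, to -0.094. Chst12, a 4-O-sulfotransferase like Chst11 (chr5:140505550-140525724), was counted at 51.04 and 42.3 CPM in KO SSC, against 59.2 and 60.3 CPM in WT SSC, and at 43.99 and 35.4 CPM in KO BCSP, against 51.5 and 74.5 CPM in WT BCSP. No KO library of Chst12 reached the lowest WT library, although KO SSC library 1, at 51.04 CPM, came within 1 CPM of WT BCSP library 1. Its log2 fold change was -0.51 ± 0.16 (SE) over both cell types (edgeR adjusted p = 0.608) and -0.67 ± 0.24 in BCSP (adjusted p = 0.686). In BCSP it was -0.37 without WT BCSP library 2 and -0.22 without both BCSP libraries of round 2.

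Chst11, which is needed for a normal growth plate in mice, was counted at 745 and 723 CPM in KO SSC, against 785 and 991 CPM in WT SSC, and at 594 and 580.02 CPM in KO BCSP, against 703 and 766 CPM in WT BCSP. The KO libraries lay below the WT libraries within each cell type but overlapped between cell types, and the log2 fold change was -0.30 ± 0.16 over both (edgeR adjusted p = 0.646). Taken as a share of the TPM of the 5 genes for 4-O and 6-O sulfation, the 6-O genes Chst3 and Chst7 made up 2.20% and 4.04% in KO SSC, against 2.19% and 1.85% in WT SSC. In BCSP they made up 5.29% and 5.11% in KO, against 3.25% and 2.48% in WT. The 4-O genes thus held most of the transcripts in every library, and this share was chosen after the fold changes were seen, so it is a description only. Chst7 had 22 and 46 counts in KO SSC, against 54 and 51 in WT SSC, and 22 and 0 counts in KO BCSP, against 70 and 107 in WT BCSP. All 4 KO libraries of Chst7 lay below all WT libraries, but at these counts the fitted fold change, -2.93 ± 1.26 in BCSP, depends on the prior count. Chst7 and Hs6st2 lie on the X chromosome, and the sex-linked genes differed with genotype: the Y-linked Ddx3y was at 62.1 to 92.2 CPM in KO libraries, against 23.2 to 39.7 CPM in WT, and Xist at 74.95 to 291 CPM in KO, against 277 to 621 CPM in WT. All genotype comparisons here carry this difference. The part of pup sex in the values of Chst7, or of any other member, was not tested. Chst14, Chst15 and Ust, for dermatan 4-O-sulfation, further 6-O sulfation of sulfated galactosamine and uronic acid 2-O-sulfation, had -0.23 ± 0.22, -0.18 ± 0.20 and -0.10 ± 0.24 over both cell types.

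**Figure D2:**
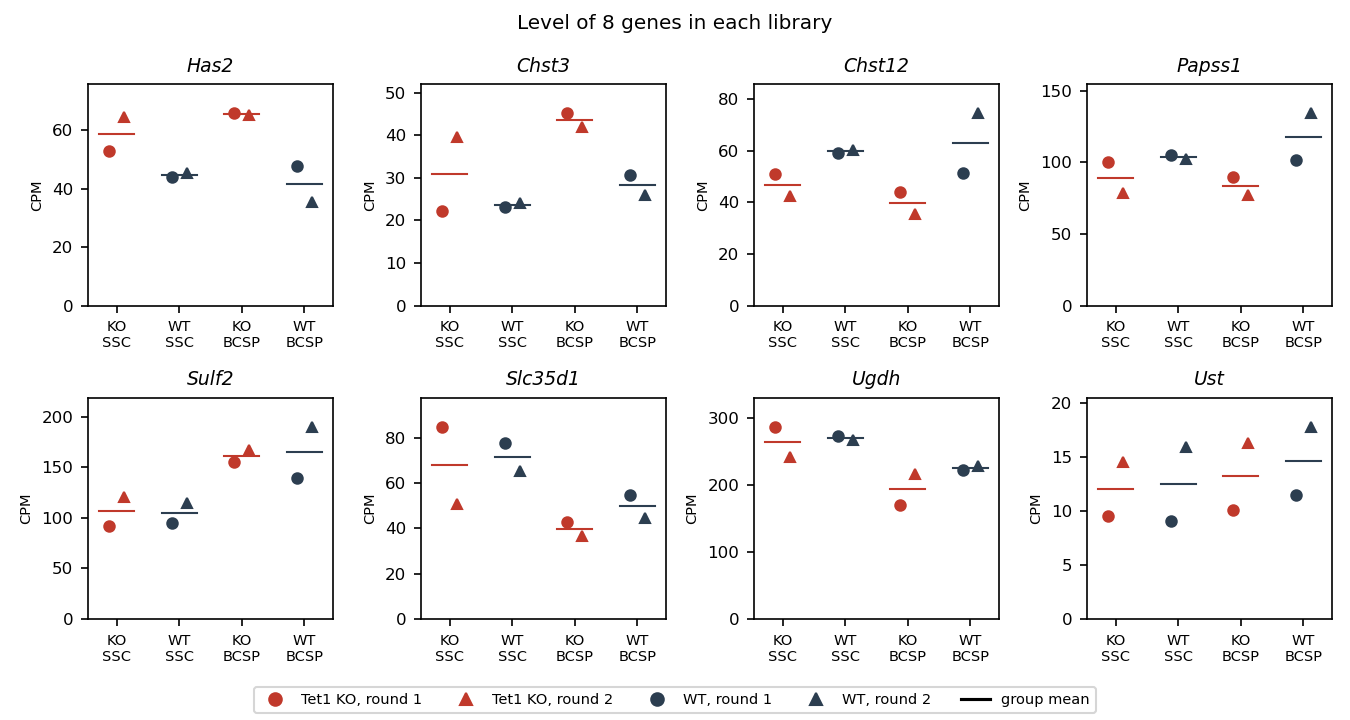
CPM of 8 genes in each library (y axis, from 0), with KO left of WT in SSC and then in BCSP, circles for round 1, triangles for round 2 and a line at the mean of the 2 libraries. Has2 is higher and Chst12 and Papss1 are lower in all KO libraries, Sulf2 is lower and Ugdh higher in all SSC libraries, and Ust is higher in all round 2 libraries.

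Sulfate and sugar supply lay close to or below 0. Papss1, the other PAPS synthase (chr3:131564768-131643671), was counted at 99.98 and 78.8 CPM in KO SSC, against 105 and 102 CPM in WT SSC, and at 89.5 and 76.9 CPM in KO BCSP, against 102 and 134 CPM in WT BCSP. All 4 KO libraries of Papss1 lay below all WT libraries. Together with Chst12 and Chst7 it made 3 members lower without overlap, beside 2.25% of all genes, and it was named for that after its values were seen. The log2 fold change of Papss1 was -0.36 ± 0.16 (SE) (edgeR adjusted p = 0.614), with -0.24 without WT BCSP library 2 and -0.20 without both BCSP libraries of round 2. Papss2, whose loss gives short limbs in mice, was counted at 614 and 537 CPM in KO SSC, against 555 and 673 CPM in WT SSC, and at 438 and 478 CPM in KO BCSP, against 528 and 473 CPM in WT BCSP. The KO and WT libraries of Papss2 overlapped in both cell types, and the log2 fold change was -0.11 ± 0.16 (adjusted p = 0.86). Slc26a2, the sulfate transporter mutated in human diastrophic dysplasia, was counted at 243 and 185 CPM in KO SSC, against 251 and 235 CPM in WT SSC, and at 171 and 168 CPM in KO BCSP, against 223 and 121 CPM in WT BCSP. WT BCSP library 2 was the lowest of its 8 values and WT SSC library 1 the highest. The log2 fold change of Slc26a2 was -0.10 ± 0.19 over both cell types, and its sign turned, to 0.069, without WT BCSP library 1.

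For the sugar nucleotides, Ugdh was counted at 287 and 242 CPM in KO SSC, against 273 and 268 CPM in WT SSC, and at 171 and 217 CPM in KO BCSP, against 222 and 228 CPM in WT BCSP. The groups overlapped in SSC, and in BCSP the KO libraries lay below the WT ones. The log2 fold change of Ugdh was -0.12 ± 0.15 over both cell types (edgeR adjusted p = 0.839). Uxs1, which turns UDP-glucuronic acid into UDP-xylose for the linker, was counted at 77.5 and 54.2 CPM in KO SSC, against 77.3 and 70.4 CPM in WT SSC, and at 59.9 and 46.7 CPM in KO BCSP, against 68.6 and 84.9 CPM in WT BCSP. KO and WT overlapped in SSC and not in BCSP, where the highest value was that of WT library 2. Uxs1 had -0.53 ± 0.25 in BCSP, against -0.36 without that library, and -0.17 ± 0.25 in SSC, where its sign turned with 1 library left out (-0.45 to 0.054). Slc35d1, which carries UDP-sugars into the endoplasmic reticulum, had -0.20 ± 0.18 over both cell types.

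Of the 6 linker genes, 6 had a log2 fold change below 0 in SSC and 5 in BCSP, and none passed the test. The count in SSC rested on round 2, where 6 of 6 differences were below 0, while in round 1 Xylt1, Xylt2 and Fam20b were above 0. With 1 library left out at a time, 4 of the 6 turned sign in SSC (Xylt1, Xylt2, Fam20b and B3gat3) and 1 in BCSP (Xylt2). B4galt7 and B3galt6 add the galactoses, B3gat3 the closing glucuronic acid, and Fam20b phosphorylates the xylose. Over both cell types they had log2 fold changes of -0.34 ± 0.15 (SE) for B4galt7, -0.35 ± 0.19 for B3galt6, -0.37 ± 0.19 for B3gat3 and -0.30 ± 0.16 for Fam20b, with edgeR adjusted p of 0.614 to 0.65. These values leaned on 1 pair of libraries: the round 2 differences in BCSP were -0.75, -0.96, -1.10 and -0.70, while those of BCSP round 1 were -0.22, -0.12, 0.01 and -0.16. Without WT BCSP library 2 the BCSP fold change of B3gat3, -0.54 ± 0.27, was -0.25. Xylt1, the most abundant linker gene, was counted at 442 and 508 CPM in KO SSC, against 383 and 610.3 CPM in WT SSC, and at 371 and 495 CPM in KO BCSP, against 372 and 359 CPM in WT BCSP. Its KO and WT libraries overlapped in both cell types, and it had 0.09 ± 0.19, while Xylt2 had -0.05 ± 0.14.

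None of the chondroitin chain genes passed the test with genotype. Chsy1, which adds both sugars of the repeat, was counted at 171 and 179 CPM in KO SSC, against 145 and 215 CPM in WT SSC, and at 145 and 192 CPM in KO BCSP, against 152 and 178 CPM in WT BCSP. Its KO and WT ranges overlapped in both cell types, and its log2 fold change was 0.00 ± 0.17 (edgeR adjusted p = 0.997). Chpf, its partner in polymerisation, was counted at 164 and 165 CPM in KO SSC, against 222 and 154 CPM in WT SSC, and at 206 and 150.4 CPM in KO BCSP, against 168 and 206 CPM in WT BCSP, with -0.13 ± 0.17 (adjusted p = 0.847). Csgalnact1, which adds the galactosamine that commits a linker to chondroitin, had -0.34 ± 0.19, with its lowest value, 42.5 CPM, in KO BCSP library 1. Csgalnact2, with the same activity, had 0.08 ± 0.14. Chsy3 and Chpf2, further polymerising enzymes, had -0.06 ± 0.16 and -0.24 ± 0.16. Chpf2 shares 2466 exon bases with Smarcd3 on the other strand, so its counts are uncertain.

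Among the heparan sulfate genes, 4 of the 5 chain builders had a log2 fold change below 0 over both cell types and 6 of the 8 modifiers one above 0, with none called. The exceptions were Extl3 among the builders and Glce and Sulf2 among the modifiers. Ext1, which with Ext2 forms the chain polymerase and whose loss gives cartilage outgrowths, was counted at 47.6 and 49.6 CPM in KO SSC, against 48.5 and 56.7 CPM in WT SSC, and at 50.7 and 53.9 CPM in KO BCSP, against 55.2 and 69.5 CPM in WT BCSP. KO lay below WT in BCSP and overlapped it in SSC, with a log2 fold change of -0.18 ± 0.14 (SE) over both cell types (edgeR adjusted p = 0.721). Ext2 was counted at 159 and 115 CPM in KO SSC, against 172 and 152 CPM in WT SSC, and at 128 and 91.7 CPM in KO BCSP, against 143 and 186 CPM in WT BCSP. KO BCSP library 2 was the lowest and WT BCSP library 2 the highest of its 8 values, and the log2 fold change in BCSP was -0.58 ± 0.27 (adjusted p = 0.686), against -0.38 without WT BCSP library 2 and -0.16 without both BCSP libraries of round 2. Extl1 and Extl2, which add single sugars, had -0.26 ± 0.17 and -0.28 ± 0.20, and Extl3, which starts the heparan chain, had 0.01 ± 0.16.

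Of the 8 genes that modify heparan sulfate, 7 had a log2 fold change above 0 in SSC, and 6 in BCSP, and 5 turned sign in each cell type with 1 library left out at a time. Ndst2, which swaps acetyl for sulfate on glucosamine, was counted at 21.4 and 17.7 CPM in KO SSC, against 15.2 and 14.4 CPM in WT SSC, and at 16.3 and 15.2 CPM in KO BCSP, against 15.9 and 13.2 CPM in WT BCSP. Both KO SSC values of Ndst2 lay above all other values, and KO and WT overlapped in BCSP. For Ndst2 the log2 fold change was 0.40 ± 0.23 (SE) in SSC and 0.12 ± 0.23 in BCSP, with edgeR adjusted p of 1 and 0.915. Sulf1, an extracellular enzyme that removes 6-O sulfate, was counted at 11.7 and 14.4 CPM in KO SSC, against 10.8 and 12.7 CPM in WT SSC, and at 14.8 and 22.1 CPM in KO BCSP, against 12.5 and 11.5 CPM in WT BCSP. KO BCSP library 2 was the highest of the 8 values, and the log2 fold change of Sulf1 in BCSP was 0.62 ± 0.27 (adjusted p = 0.686), against 0.33 without that library. Hs2st1, Hs6st1 and Hs6st2, the 2-O and 6-O sulfotransferases, had 0.27 ± 0.16, 0.16 ± 0.19 and 0.31 ± 0.22 over both cell types. Ndst1 had 0.14 ± 0.13, Glce, the epimerase that makes iduronic acid, -0.01 ± 0.14, and Sulf2, the other endosulfatase, -0.01 ± 0.16.

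**Figure D3:**
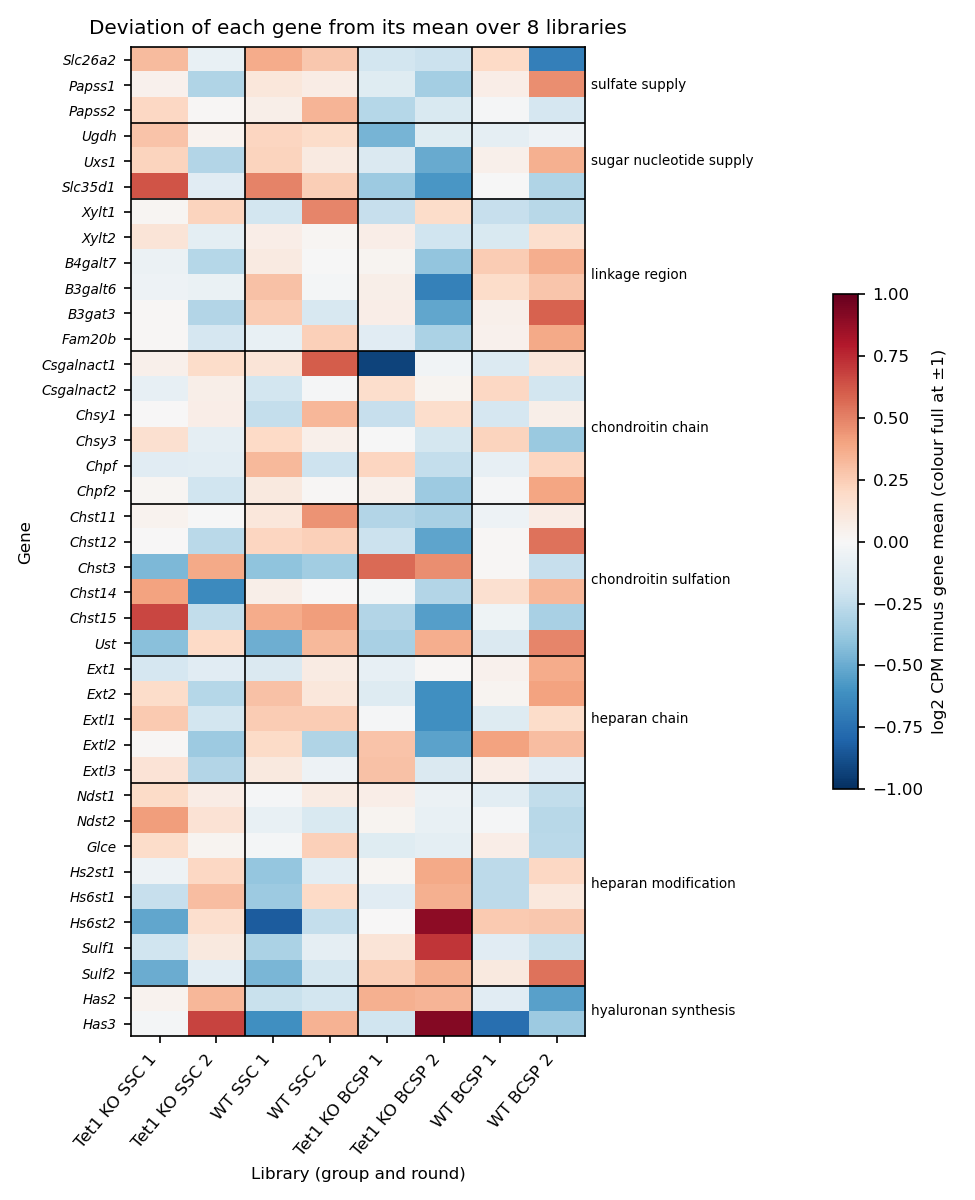
Log2 CPM of 39 genes in each library minus the gene's mean over the 8 libraries, genes grouped by role, KO left of WT in each cell type (Chst7 and Chst13 are left out for low counts). In KO BCSP library 2 the medians over the linker and heparan chain genes are -0.36 and -0.53 and those over the heparan-modifying and hyaluronan genes 0.36 and 0.63, while WT BCSP library 2 has linker and heparan chain medians of 0.32 and 0.31.

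The members' fold changes varied with exon length. Across the 40 tested members, Spearman's correlation of the KO log2 fold change with exon length was 0.38 in SSC and 0.49 in BCSP, against 0.04 and 0.05 across all 22120 tested genes with a length. The genes are no independent replicates, since they share libraries, so no p is given. Within libraries, the members' deviations from their means correlated with length at 0.40 in KO BCSP library 2 and -0.47 in WT BCSP library 2, and between -0.23 and 0.27 in the other 6. Over both cell types the 10 shortest tested members, with 2090 to 3856 exon bases, all had negative fold changes, with a median of -0.35. The 10 longest, with 7328 to 12370 exon bases, split evenly, with 5 on each side of 0 and a median of -0.01. The longest, Slc26a2, had -0.10, and the next, Sulf1, 0.39. With a length trend removed from each library, Chst12 over both cell types was -0.47, Papss1 -0.32, Has2 0.53, Chst3 0.45 and Sulf1 0.23. The trend across all genes was weak, at 0.04 and 0.05, and whether this step removed the members' own trend was not tested. The part of RNA integrity in these values was not tested. Markers of other cell types were read by genotype as well. The 4 skeletal muscle markers summed to 6.98 to 10.8 CPM in KO libraries, against 11.4 to 25.1 CPM in WT. Acta1 and Tnnt3 made up almost all of it, with Myh3 at 0 in 3 libraries and Ckm at 0 in 2. Over both cell types 2 of the 4 had a log2 fold change above 0, and the median was 0.47, so the sum does not stand for each marker. The 6 blood and immune markers summed to 4.12 to 25.9 CPM in KO libraries, against 4.84 to 81.3 CPM in WT. These ranges overlapped, and the 81.3 CPM was WT SSC library 1. Of the 6, 0 had a log2 fold change above 0 in SSC and 5 in BCSP. Over both cell types 0 had an unadjusted edgeR p under 0.05. The part of both lists in the members' values was not tested.

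**Figure D4:**
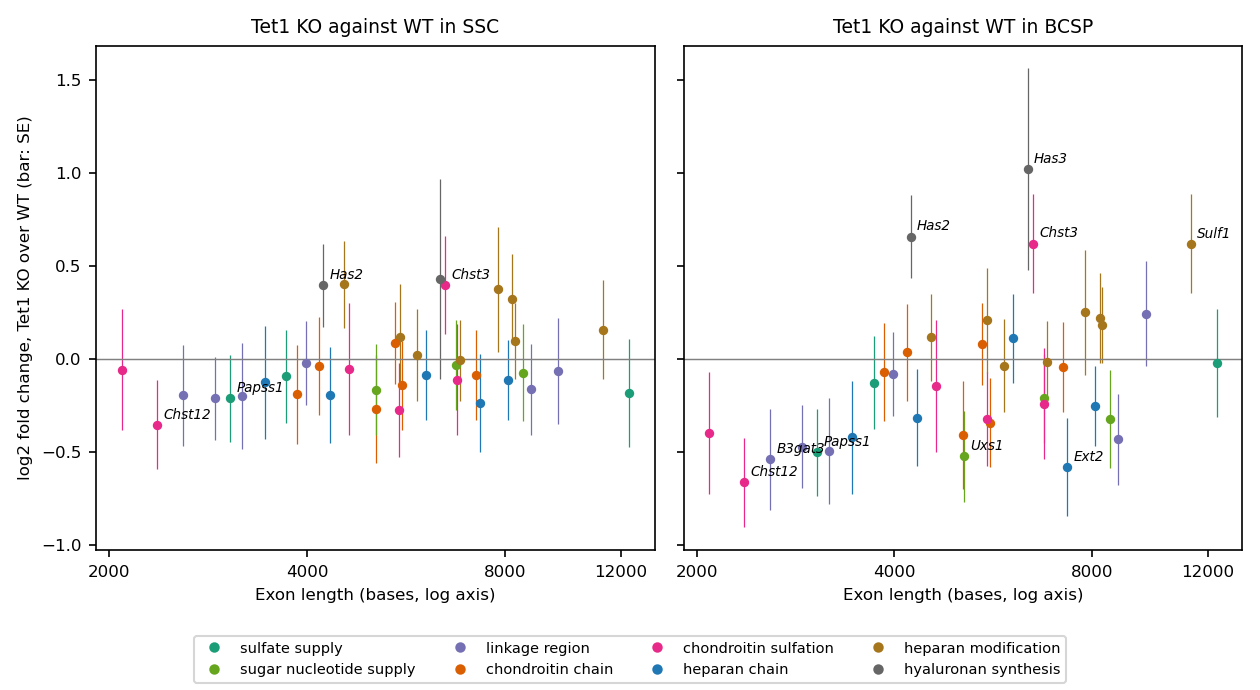
Log2 fold change of KO over WT (y axis, bar 1 SE) against exon length in bases (x axis, log scale) for 39 genes, in SSC on the left and BCSP on the right, coloured by role (Chst7 is left out for low counts). Values climb with length in BCSP, where Spearman's correlation over the 40 tested members was 0.49.

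SSC were next compared with BCSP over both genotypes. Fold changes lay above 0 on the log2 scale for the 3 genes of sugar nucleotide supply and for 2 of the 3 of sulfate supply, with Papss1 at -0.04 ± 0.16. The heparan endosulfatase Sulf2 and the 6-O-sulfotransferase Hs6st2 had the most negative values. No member passed the adjusted threshold: edgeR called 0 of 40, where it called 1 of all genes (0.00451%), Eng, and DESeq2 called 0 members too. At an unadjusted edgeR p under 0.05 there were 5 members higher in SSC, beside 1.88% of all genes, and 2 lower, beside 1.83%. Those higher were Csgalnact1, Chst15, Slc26a2, Ugdh and Slc35d1, and those lower Hs6st2 and Sulf2. DESeq2 had 9 in both directions, beside 1121 of all 22153 genes. The median log2 fold change was 0.06 over the members and 0.01 over all genes, with 22 of 40 members above 0. In bulk samples fewer cells of a type and less RNA per cell cannot be told apart.

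Sulf2 was counted at 92.2 and 121 CPM in KO SSC, against 155 and 166 CPM in KO BCSP, and at 94.96 and 115 CPM in WT SSC, against 139 and 189.8 CPM in WT BCSP. All 4 SSC libraries of Sulf2 lay below all BCSP libraries, the only member of which that was true, beside 1.05% of all genes. The log2 fold change of Sulf2 was -0.62 ± 0.16 (SE) (edgeR adjusted p = 0.797), and -0.70 to -0.52 with 1 library left out at a time. Sulf2 shares 154 exon bases with Ncoa3 on the other strand. Hs6st2, which adds the 6-O sulfate that Sulf2 removes, was counted at 8.83 and 14.2 CPM in KO SSC, against 12.7 and 23.5 CPM in KO BCSP, and at 7.10 and 10.7 CPM in WT SSC, against 15.1 and 15.2 CPM in WT BCSP. SSC and BCSP overlapped for Hs6st2, and the log2 fold change was -0.71 ± 0.23 (adjusted p = 1).

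Slc35d1 was counted at 84.8 and 50.8 CPM in KO SSC, against 42.7 and 36.7 CPM in KO BCSP, and at 77.6 and 65.1 CPM in WT SSC, against 54.8 and 44.6 CPM in WT BCSP. KO SSC library 2 lay below WT BCSP library 1, and the other SSC libraries were above all BCSP libraries. The log2 fold change of Slc35d1 was 0.65 ± 0.18 (SE) (edgeR adjusted p = 0.837). Chst15 was counted at 20.3 and 10.8 CPM in KO SSC, against 10.5 and 8.72 CPM in KO BCSP, and at 16.6 and 17.1 CPM in WT SSC, against 12.5 and 10.2 CPM in WT BCSP, with KO SSC library 1 highest and an overlap between the cell types in KO SSC library 2. Its log2 fold change was 0.63 ± 0.20 (adjusted p = 1), and 1206 of its exon bases are shared with Gm10584 on the other strand. Ugdh and Papss2 lay higher in all SSC libraries than in all BCSP libraries, 2 members beside 1.48% of all genes. By the values given above, Ugdh had a lowest SSC value of 242 CPM and a highest BCSP value of 228 CPM, with 0.36 ± 0.15, and Papss2 a lowest SSC value of 537 CPM and a highest BCSP value of 528 CPM, with 0.31 ± 0.16. Slc26a2 had 0.41 ± 0.19, Csgalnact1 0.46 ± 0.19 and Chst11 0.30 ± 0.16. Chst3 had -0.38 ± 0.18, and Has2 -0.03 ± 0.15. Beside these, 4 tendon and fibrous markers summed to 39.0 to 55.5 CPM in SSC, against 60.1 to 72.2 CPM in BCSP. The 5 osteoblast markers summed to 1605 to 1989 CPM in SSC, against 2262 to 2953 CPM in BCSP. None of these markers was at 0. The osteoblast markers went both ways, with 2 of 5 log2 fold changes above 0. By edgeR 1 of them was higher in SSC and 1 lower at an unadjusted p under 0.05. The part of both lists was not tested.

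Round 2 was compared with round 1 over all groups, since the round marks how libraries were numbered in every group. It gave the single call among the members: Ust, which sulfates uronic acid at the 2-O position, rose in round 2. The heparan 6-O-sulfotransferases Hs6st1 and Hs6st2 had the next lowest p. EdgeR called 1 of 40 members higher, beside 1.40% of all genes, and 0 lower, beside 0.745%. At an unadjusted p under 0.05 there were 8 members higher in round 2, beside 7.60% of all genes, namely Chsy1, Csgalnact1, Ust, Hs2st1, Hs6st1, Hs6st2, Sulf2 and Has3. There were 4 lower, Chsy3, Extl2, Extl3 and Slc35d1, beside 5.69%. By DESeq2 the calls were Ust and Hs6st1.

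Ust was counted, in the order KO SSC, WT SSC, KO BCSP and WT BCSP, at 14.6, 15.9, 16.3 and 17.8 CPM in round 2, against 9.51, 9.04, 10.1 and 11.5 CPM in round 1. Every round 2 library lay above every round 1 library, and the differences within the 4 groups were 0.61, 0.82, 0.69 and 0.63 on the log2 scale. The log2 fold change of Ust was 0.69 ± 0.14 (SE) (edgeR adjusted p = 0.0227). It stayed between 0.64 and 0.72 with 1 library left out at a time, and the call was lost in 5 of those 8 fits, with an adjusted p of up to 0.133. In the same order Hs6st1 was counted at 31.6, 29.3, 32.8 and 27.5 CPM in round 2, against 21.7, 19.8, 23.7 and 21.3 CPM in round 1. Its rounds did not overlap either, and its log2 fold change was 0.49 ± 0.13 (adjusted p = 0.0761), without a call in edgeR. Hs6st2 was counted at 14.2, 10.7, 23.5 and 15.2 CPM in round 2, against 8.83, 7.10, 12.7 and 15.1 CPM in round 1, where the rounds overlapped, with 0.54 ± 0.17 (adjusted p = 0.145). Higher without overlap were 3 members, Chsy1, Ust and Hs6st1, beside 4.01% of all genes, and lower 1, Extl3, beside 3.61%. Chsy1 had 0.32 ± 0.13 and Extl3 -0.30 ± 0.13. WT BCSP library 2 weighed most here: without it edgeR called 20 members and 4072 genes. Marker sums moved with the round too. The 6 blood and immune markers summed to 4.12 to 6.93 CPM in round 2, against 8.98 to 81.3 CPM in round 1, with 2 of 6 called lower, and 2 of 5 osteoblast markers were called lower. Ptprc was at 0 in WT BCSP library 2 and S100a8 in WT SSC library 2. Their part in the members' values was not tested.

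The rest of the pathway was read from lists of genes next to the members. Of 39 tested genes that also act in glycosaminoglycan synthesis or its supply, edgeR called 0 with genotype or cell type, and 4 with round. These were 2 higher in round 2, beside 1.40% of all genes, and 2 lower, beside 0.745%. Has1, the hyaluronan synthase outside the members, rose in round 2, at 54.8, 31.8, 73.4 and 43.1 CPM in round 2, against 17.8, 18.8, 24.7 and 19.2 CPM in round 1, in the group order used for Ust. Its log2 fold change was 1.28 ± 0.16 (SE) (edgeR adjusted p = 0.00211), and the rounds did not overlap. B3gnt2 rose by 1.22 ± 0.24 on the log2 scale, while Chst1, a keratan sulfotransferase, had -1.36 ± 0.18 and Slc35a3, a UDP-sugar carrier, -0.69 ± 0.12, with adjusted p of 0.0179, 0.00266 and 0.013. For genotype over both cell types Chst5 and Bpnt1 on that list had -0.70 ± 0.29 and -0.37 ± 0.17, with adjusted p of 0.614 and 0.628. With genotype 13 of the 39 lay above 0, with a median of -0.19.

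Of 20 tested genes that break glycosaminoglycans down, edgeR called 0 in any of the 6 comparisons. For genotype over both cell types, 1 was higher and 2 lower at an unadjusted p under 0.05, beside 3.95% and 3.96% of all genes. Cemip2, a hyaluronidase, had 0.46 ± 0.15, Gusb, which cleaves glucuronic acid, -0.44 ± 0.17 and Hyal2, another hyaluronidase, -0.40 ± 0.18. For cell type Galns, a lysosomal sulfatase, had -0.58 ± 0.16, SSC below BCSP. Of 34 proteoglycan core protein genes edgeR called 0 with genotype or cell type. Epyc, a small leucine-rich proteoglycan of cartilage, had the lowest p of these for genotype. It was counted at 356 and 252 CPM in KO SSC, against 488 and 437 CPM in WT SSC, and at 195 and 222 CPM in KO BCSP, against 329 and 381 CPM in WT BCSP. Its KO libraries lay below its WT libraries within each cell type, with a log2 fold change of -0.69 ± 0.17 over both (adjusted p = 0.411). Gpc1, a heparan sulfate core protein, had -0.51 ± 0.16, and Esm1 0.99 ± 0.32 at 0.886 to 3.14 CPM. With round, Ncan rose by 0.71 ± 0.17 and Spock1 had -1.85 ± 0.22, with adjusted p of 0.0493 and 0.00154.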

How the data were processed

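Counts per gene for 8 libraries were deposited by the authors as whole numbers; mm10, STAR, featureCounts and DESeq2 are named, per the submitters' processing notes. Versions, annotation release and strand of counting are not given in the sources used here. Column names with SCC and BCP were read as SSC and BCSP. Positions and exon lengths came from GENCODE release M21, which held 55230 of the 55471 entries. EdgeR 4.0.16 in R 4.3.3 with limma 3.58.1 used TMM factors (0.854 to 1.06) and filterByExpr (minimum count 10, minimum total 15), leaving 22153 genes. Quasi-likelihood models held 1 mean per group, genotype plus cell type, or genotype plus cell type plus round. They had 4, 5 and 4 residual degrees of freedom and a common biological variation of 0.525, 0.523 and 0.467. The model over both cell types treats SSC and BCSP libraries as independent. P-values were adjusted by Benjamini-Hochberg over all genes, with 0.05 as the threshold. Log2 CPM used a prior count of 2, and TPM was computed from counts and exon lengths. DESeq2 1.42.0 was an alternative. The scripts were tested on simulated data. No library was a copy of its partner: the chi-square between the 2, divided by its degrees of freedom, was 144 to 351.

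Members called, the 3 members of lowest p in each comparison, the 6 of highest TPM, and Papss2, Slc26a2, Chst11, Ugdh and Ext1 are given per library. The members and lists were chosen with earlier results of these data known. Precision is limited by 2 libraries a group rather than by depth. A count of 0 was read as at or under 3 counts.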

Additional observations from a re-analysis of the deposited data

How the results depend on the processing

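Over the alternatives run (RLE factors, DESeq2, no filter, 1 cell type alone, no BCSP round 2 libraries, an exon length offset, the replicate block and each library left out), the count of members called with genotype, with cell type or for their difference was 0 in each. For round the count was 1, against 2 with DESeq2, 6 without both BCSP libraries of round 2 and 2 with the exon length offset. It was 0 to 20 with 1 library left out, the 20 without WT BCSP library 2. The calls over all genes rose too, from 476 of 22153 to 1128 with DESeq2 and 652 with the offset. They were 1932 of 23955 without both BCSP libraries of round 2, and 4072 of 24746 without WT BCSP library 2. With 1 library left out at a time, fold changes turned sign for 24 of 40 members in SSC, 13 in BCSP, 9 over both cell types, 16 for cell type, 28 for the difference and 11 for round. Among the genes given per library these included Chst3 in SSC without KO SSC library 2 (range over left-out libraries -0.094 to 0.75) and Slc26a2 over both cell types without WT BCSP library 1 (-0.27 to 0.069). The members' median difference between the KO effects, 0.11, was -0.01 without both BCSP libraries of round 2.

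The round numbers were not taken to pair the samples, since same-round deviations correlated at 0.0234 to 0.24 and WT BCSP with KO BCSP stood lowest. With the replicate block, members called remained 0 in SSC, in BCSP, for the difference, over both cell types and for cell type, while calls over all genes were 2, 3, 2, 28 and 2, against 1, 1, 0, 3 and 1 without it. At an unadjusted p under 0.05 the members were 11 in BCSP, 12 over both cell types and 10 for cell type with the block. Without it they were 6, 6 and 7. Over all 22153 genes these counts rose too, to 2045, 2441 and 1116 with the block, from 1371, 1753 and 822. At the adjusted threshold, all-gene calls by DESeq2 were 9, 20, 0, 103 and 39, with 1128 for round against 476. Without the filter they were 4, 38, 0, 234 and 66, with 1062 for round. With the length offset they were 10 over both cell types and 652 for round, and with offset and replicate block 4, 11, 2, 52 and 12. The causes were not tested.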
